A study of Mus musculus with 6 samples.

Results

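The genes described here are 10 mouse genes through which a cell detects RNA and DNA in its cytosol and passes the signal on. They were chosen by name in the deposited table of 55232 features, where all 10 are listed, with the RIG-I gene under its older symbol Ddx58. Ifih1, Ddx58 and Dhx58 encode the RIG-I-like receptors, Mavs their adaptor, Tbk1 the kinase and Irf3 the transcription factor downstream of it. Zbp1 and Eif2ak2 encode further sensors, and Adar and Trex1 encode enzymes that alter or degrade nucleic acid before it is sensed. Of the 10, 9 passed the filter on low counts and were tested, and Trex1 was listed at 0 in every library.

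RNA was sequenced from microvascular endothelial cells of the mouse lung, which the labels call a cell line, taken from the lower chamber after 12 h of co-culture. The 3 control samples were grown with untreated TCMK-1, a tubular epithelial line from mouse kidney. The partners of the 3 repletion samples were TCMK-1 cells whose ATP had been depleted and then restored, abbreviated IR in the labels. The endothelial cells were themselves untreated, and no genotype or allele is named. The labels do not tell whether a group's samples were separate cultures, and p-values then reflect only how these samples spread, which may be technical.

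The libraries held 15582349 to 17817618 counts. Of 14 endothelial marker genes, 13 passed the filter (6 rose and 2 fell), and the summed level of all 14 was 2480 to 2770 reads per 1000000 counts (CPM) in control and 2710 to 3160 in the repletion group, while Cldn5 had 3 counts in 1 library and 0 in the others. Markers of other cells were low, apart from Cd68, a lysosomal protein gene, and to a lesser degree Pdgfra, a fibroblast marker. Pdgfra averaged 18.4 CPM in control and 15.4 after repletion and did not pass. The 16 tubular markers summed to 17.5 to 20.5 CPM in control and 30.7 to 36.2 in the repletion group, with Slc34a1, Epcam, Krt18 and Umod at 0 in all 6 libraries. Of the 5 tubular markers tested, 1 passed. It was Cubn, which rose from a mean of 3.51 to 13.8 CPM (log2 fold change 1.97, adjusted p 4.19e-06, edgeR). Aqp1, at 7.81 and 7.84 CPM, and Pax2, at 5.88 and 6.47, did not pass. The 12 leukocyte markers summed to 378 to 417 CPM and 223 to 311 CPM, nearly all from Cd68, with Itgam, Tyrobp, Cd3e and Ms4a1 at 0. The 10 fibroblast and mural markers summed to 20.5 to 23.1 CPM in control and 18.6 to 25.9 in the repletion group. The 8 lung epithelial markers summed to 0.224 to 0.925 CPM and 0.906 to 1.8 CPM. Of these 8 only Ager was tested, and it rose from a mean of 0.252 to 1.17 CPM (log2 fold change 2.2, adjusted p 0.0198, edgeR). The part of these markers' shifts in the results below was not tested. In bulk samples, fewer cells of a type and less RNA per cell cannot be told apart.

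RIG-I and MDA5, the products of Ddx58 and Ifih1, bind double-stranded RNA in the cytosol. They then join MAVS on the outer mitochondrial membrane, which recruits TBK1, and TBK1 phosphorylates IRF3 so that it can switch on interferon genes. LGP2, the product of Dhx58, lacks the signalling domain of the other receptors and modulates them. Many of these genes are themselves induced by interferon through a short promoter element, the interferon-stimulated response element. Mitochondrial transcripts, made from both strands of the mitochondrial genome, can form double-stranded RNA that MDA5 recognises once it leaves the organelle.

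Promoter windows of RefSeq genes on GRCm38.p6, 250 bases before to 50 bases after each start, were available for 8 of the 10 genes. Zbp1 and Dhx58 had none. The core of the response element, taken as a pair of GAAA runs with 2 bases of any kind between them and searched on both strands, was found in 3 of the 8 genes, beside 3.44% of all 32851 windows and 11 of 24 interferon-stimulated genes. The 3 stretches are shown because these genes hold the same core, with different bases in its gap, and did not all move alike. Each is 30 bases, 5′ to 3′ on the gene's own strand, with the matched letters in capitals. The Ddx58 match reads on the opposite strand. Counted from the start, the matches begin at base 33 in Ifih1, 19 in Eif2ak2 and 3 in Ddx58. All 3 thus lie after the start and not before it.
Ifih1, minus strand, chr2:62646206-62646235: gagaagagaatcGAAACAGAAAccgatctg
Eif2ak2, minus strand, chr17:78882535-78882564: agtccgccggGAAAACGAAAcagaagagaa
Ddx58, minus strand, chr4:40239804-40239833: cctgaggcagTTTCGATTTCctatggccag

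The question was what changes in lung endothelium grown beside kidney cells that lost and regained ATP. Among the sensing genes, the RNA sensor gene Ifih1 was 1.42-fold higher in the repletion group, and the kinase gene Eif2ak2 and Irf3 were each 1.29-fold higher. Dhx58, Adar, Tbk1 and Zbp1 were lower, at 0.641, 0.736, 0.828 and 0.443 times control. Of the 9 tested, 3 were called higher and 4 lower (adjusted p below 0.05), while the others, Ddx58 and Mavs, did not pass. Over all 13804 tested features, 39.7% passed, 20.5% rising and 19.2% falling. The median log2 fold change of the 9 was -0.21, beside 0.00 over all tested features. Adjusted p-values are from edgeR's quasi-likelihood test with Benjamini-Hochberg adjustment over all tested features. Under 19 other settings none of the 9 changed direction, but leaving out 1 library left between 1 and 3 risers and between 1 and 4 fallers. There was 1 riser without control replicate 2 or repletion replicate 3, and 1 faller without control replicate 3 or repletion replicate 3, with 2 fallers without repletion replicate 2. Ifih1 and Adar passed under all 19.

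**Figure D1:**
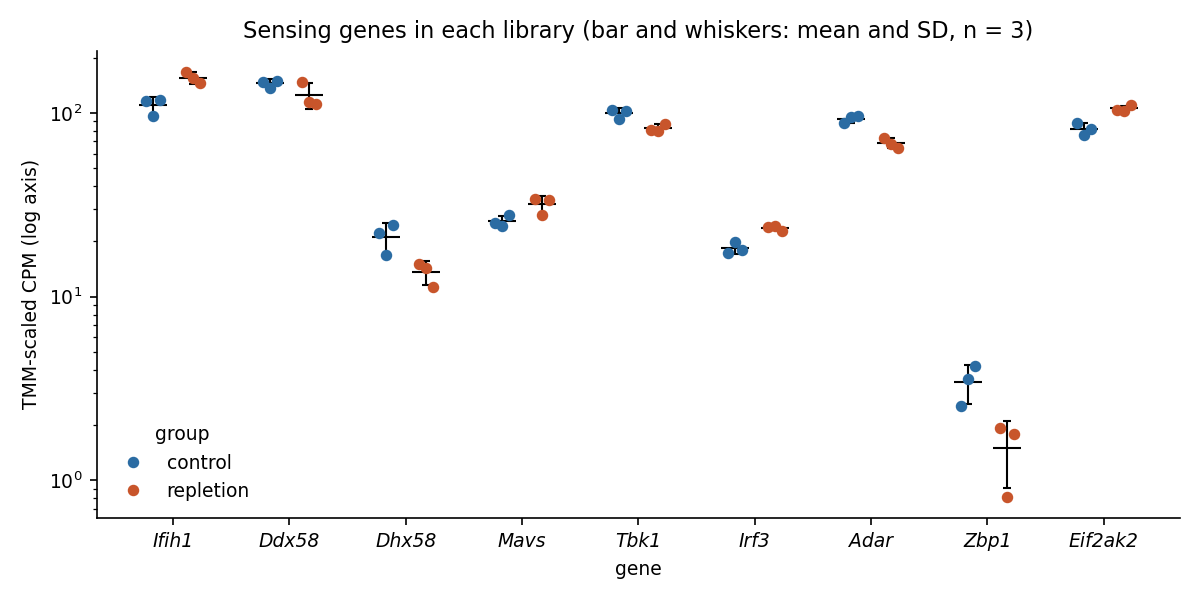
TMM-scaled CPM (y, log axis) of the 9 tested genes (x) in each library. Points are the 3 control and 3 repletion libraries, bars and whiskers their mean and SD. The groups are separate for every gene shown except Ddx58, as they are for 50.3% of all tested features. Zbp1 lies lowest, between 0.817 and 4.20 CPM.

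Ifih1 (ENSMUSG00000026896, chromosome 2, 62595798 to 62646255 on the minus strand in GRCm38, 16 exons) encodes MDA5, the receptor for long double-stranded RNA. It stood at 116, 96.2 and 117 CPM in the 3 control libraries, and at 167, 155 and 145 CPM after repletion. Every repletion library was above every control library, which was so, in either direction, for 50.3% of all tested features. Ifih1 rose by 0.50 ± 0.11 (SE) on the log2 scale (edgeR, adjusted p 0.00167). It ranged from 0.37 to 0.57 over the 19 other settings.

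Ddx58 (ENSMUSG00000040296, chromosome 4, 40203773 to 40239828 on the minus strand, 18 exons) encodes RIG-I, which binds short RNA with a 5′ triphosphate. Its levels were 148, 136 and 149 CPM in control and 148, 115 and 112 in the repletion group. Repletion replicate 1 lay within the control range and the other repletion libraries lay below it. The log2 fold change was -0.21, with a 95% interval from -0.45 to 0.04 and an adjusted p of 0.167 (edgeR). Without repletion replicate 1 it was -0.35 and passed, at 0.0141, and it also passed at -0.32 (0.0336) once trends with GC content and gene length were removed from each library. Over its alternatives the adjusted p ranged from 0.0141 to 0.468.

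Dhx58 (ENSMUSG00000017830, chromosome 11, 100694884 to 100704271 on the minus strand, 13 exons) encodes LGP2. Levels were 22.3, 16.9 and 24.4 CPM in control against 15.1, 14.4 and 11.3 in the repletion group. The groups did not overlap, though control replicate 2 and repletion replicate 1 were close. The gene fell by 0.64 ± 0.18 on the log2 scale, with an adjusted p of 0.00850 (edgeR). The call was lost without control replicate 3 (0.0533) and without repletion replicate 3 (0.0531), the adjusted p ranging from 0.00120 to 0.0533 over its alternatives. An antisense gene, Dhx58os, shares 4.3% of its exon bases and held 0 to 7 counts.

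The balance between the receptors also differed within each library, where scaling between libraries plays no part. Per base of transcript, the ratio of Ifih1 to Ddx58 counts was 0.677, 0.609 and 0.674 in control and 0.972, 1.16 and 1.11 in the repletion group. The ratio of Ifih1 to Dhx58 averaged 2.10 ± 0.180 in control and 4.62 ± 0.442 after repletion (SD, n = 3). Neither ratio overlapped between the groups. The two-sided exact permutation p was 0.1 for both, also after adjustment over these 2 ratios, which is the smallest that 3 against 3 samples allow. The ratios were chosen after the values were seen.

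Mavs (ENSMUSG00000037523, chromosome 2, 131234063 to 131248025, 8 exons), the adaptor gene, stood at 25.2, 24.3 and 27.8 CPM in control and 34.0, 28.0 and 33.5 in the repletion group. Repletion replicate 2 lay barely above the highest control library. The log2 fold change was 0.31, with a 95% interval from 0.02 to 0.60 and an adjusted p of 0.0847 (edgeR). It passed when scaled by library size alone (0.0413), without repletion replicate 2 (0.0387) and with the length and GC trend removed (0.0139), over a range of 0.0139 to 0.263.

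Tbk1 (ENSMUSG00000020115, chromosome 10, 121546455 to 121586787 on the minus strand, 21 exons), which encodes the kinase that MAVS recruits, stood at 104, 92.8 and 103 CPM in control and 80.6, 80.0 and 87.3 in the repletion group. The groups were separate. Tbk1 fell by 0.27 ± 0.10 on the log2 scale with an adjusted p of 0.0473 (edgeR), close to the threshold. The call was lost under 11 of 19 alternatives, among them the removal of any 1 library except control replicate 2, with adjusted p from 0.0357 to 0.135.

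Irf3 (ENSMUSG00000003184, chromosome 7, 44997648 to 45002848, 8 exons), the transcription factor gene at the end of this relay, moved the other way. It stood at 17.3, 19.8 and 17.9 CPM in control and 24.0, 24.2 and 22.8 in the repletion group, again without overlap. Irf3 rose by 0.37 ± 0.14 with an adjusted p of 0.0476 (edgeR), and lost the call without any 1 of the 6 libraries, with adjusted p from 0.0141 to 0.162 over all alternatives. The authors' deposited table gives it a log2 fold change of 0.37 and an adjusted p of 0.0749. It shares 2.6% of its exon bases with Bcl2l12 on the opposite strand, which had 36 to 67 counts per library.

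Eif2ak2 (ENSMUSG00000024079, chromosome 17, 78852564 to 78882573 on the minus strand, 16 exons) encodes PKR, which is activated by double-stranded RNA and phosphorylates the initiation factor eIF2α, slowing translation. Levels were 88.1, 75.8 and 81.7 CPM in control and 104, 103 and 110 in the repletion group, a clear gap. It rose by 0.37 ± 0.10 with an adjusted p of 0.00955 (edgeR). Without control replicate 2 (0.0717) or repletion replicate 3 (0.0537) it did not pass, over a range of 0.00266 to 0.0717. It shares 4.3% of its exon bases with features on the opposite strand, of which Gm26637 had 9 to 67 counts per library.

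Adar (ENSMUSG00000027951, chromosome 3, 89715022 to 89753446, 15 exons) encodes ADAR1, which edits adenosine to inosine in the cell's own double-stranded RNA and so keeps it from activating MDA5. Levels were 87.8, 95.5 and 96.4 CPM in control and 73.1, 68.0 and 64.4 in the repletion group. Every repletion library was lower than every control library. Adar fell by 0.44 ± 0.11 on the log2 scale, with an adjusted p of 0.00336 (edgeR). Chrnb2, on the opposite strand, shares 16.8% of its exon bases and had 11 to 25 counts per library, against at least 1078 for Adar.

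Zbp1 (ENSMUSG00000027514, chromosome 2, 173206612 to 173218923 on the minus strand, 8 exons), whose protein binds nucleic acid in the left-handed Z form and can start necroptosis, was the least abundant of the 9. It had 40, 56 and 73 counts in control and 33, 13 and 30 in the repletion group. The groups did not overlap after scaling, with repletion replicate 2 lowest. The gene fell by 1.18 ± 0.41 on the log2 scale, with an adjusted p of 0.0291 (edgeR). Leaving out control replicate 3 (0.125) or 2 (0.0707), or repletion replicate 2 (0.0840) or 3 (0.0507), ended the call, over a range of 0.0161 to 0.125.

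Trex1 (ENSMUSG00000049734, chromosome 9, 109057933 to 109059734 on the minus strand, 2 exons), the gene of the main cytosolic DNA exonuclease, had 0 counts in all 6 libraries. A count of 0 allows up to 3 counts, or 0.173 to 0.191 CPM per library, for counting error only. In GENCODE release M21, 100% of its 1147 exon bases also lie in exons of Atrip on the same strand, so no read can be assigned to Trex1 alone. Atrip, the gene of a DNA damage checkpoint protein, had 377 to 527 counts per library and did not pass (log2 fold change 0.15, adjusted p 0.425, edgeR). These counts therefore give no level for Trex1.

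**Figure D2:**
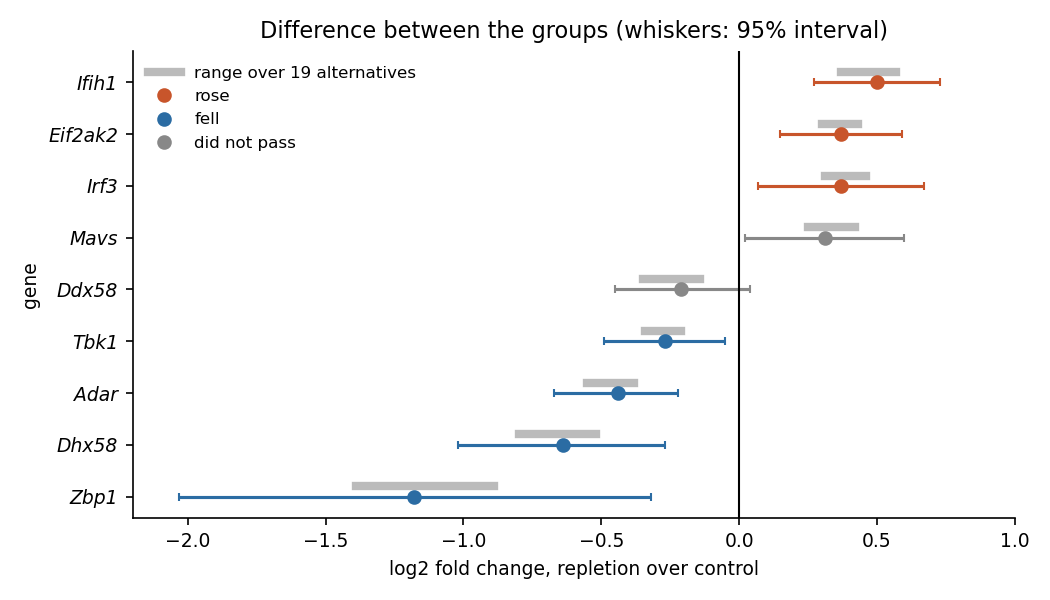
Log2 fold change of repletion over control (x) for the 9 tested genes (y), with 95% intervals as whiskers and the range over the 19 alternatives as grey bars. Ifih1, Eif2ak2 and Irf3 lie above 0 and Tbk1, Adar, Dhx58 and Zbp1 below, while the interval of Ddx58 runs from -0.45 to 0.04.

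Levels between genes were compared per length, as the reads per kilobase and per 1000000 (FPKM) that the authors deposited. In control, Tbk1 was highest at 25.2 ± 1.56 FPKM, followed by Ddx58 at 20.3 ± 1.03, Eif2ak2 at 15.8 ± 1.20 and Ifih1 at 13.3 ± 1.43 (SD, n = 3). Adar at 11.3, Mavs at 7.61, Dhx58 at 6.40 and Irf3 at 5.26 came next, and Zbp1 stood at 0.961. Among neighbours in this order, the ranges over libraries overlapped for Ifih1 and Adar, Mavs and Dhx58, and Dhx58 and Irf3. In the repletion group Tbk1, Eif2ak2, Ifih1 and Ddx58, at 21.1, 20.6, 19.0 and 17.7 FPKM, each overlapped the next. Ifih1 thus lay below Ddx58 in every control library, and in the repletion group their ranges met.

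By the rule for likeness, the 5 genes nearest to Ifih1 over the 6 libraries were Parp11, Cep78, Jmjd4, Klhl5 and Cdk17. Their root mean square difference from Ifih1 was 0.0543 to 0.0673 log2 units, among 10660 candidates. The 5 nearest to Adar were Rhbdf2, Mtmr3, Noc4l, Gcfc2 and Ces2g, at 0.0356 to 0.0453 log2 units.

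Of the 12 mitochondrially encoded mRNAs tested, 10 rose (83.3%, beside 20.5% of all tested features). Each of the 10 rose by more on the log2 scale than any sensing gene, and the median over the 12 was 1.95. All 13 together held 1.68%, 1.62% and 1.61% of counts in control, and 2.51%, 2.21% and 2.78% after repletion. The groups did not overlap (exact permutation test, two-sided p 0.1, the least that 3 against 3 can give). The largest contribution in every library came from mt-Co1, a cytochrome c oxidase subunit gene, with means of 13100 CPM in control and 12400 after repletion, which did not pass (log2 fold change -0.08, adjusted p 0.584, edgeR). Without it the share averaged 0.356% ± 0.0453 (SD, n = 3) in control and 1.23% ± 0.211 after repletion.

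Besides mt-Co1, only mt-Co2 among the 12 did not pass, and none fell (edgeR), also at an unadjusted p under 0.05. The complex I subunit mRNA mt-Nd1, which has no near-identical annotated copy, went from 302, 232 and 221 CPM to 1870, 1670 and 2520 CPM. Likewise mt-Cytb, of complex III, went from 339, 322 and 304 CPM to 1590, 1270 and 2090. In both, the lowest repletion library was far above the highest control library. The mRNA mt-Nd6, the only one of the 13 encoded on the light strand, went from 1100, 708 and 806 CPM to 1090, 1930 and 1750, and its groups overlapped, since repletion replicate 1 lay at the level of control replicate 1. It rose by 0.87 ± 0.18, with an adjusted p of 9.78e-04 (edgeR). Among the other complex I subunit mRNAs, mt-Nd2 rose by 2.82, mt-Nd3 by 2.96, mt-Nd4 by 2.10, mt-Nd4l by 3.77 and mt-Nd5 by 1.15. The oxidase subunit mRNA mt-Co3 rose by 1.80 and the ATP synthase mRNA mt-Atp6 by 1.73, while mt-Co2 had a log2 fold change of 0.33 and an adjusted p of 0.0786 (edgeR). These 8 mRNAs and mt-Co1 have near-identical annotated copies elsewhere, so their counts are uncertain. The other ATP synthase mRNA, mt-Atp8, was not tested, at 0 CPM in control and at most 0.478 after repletion. The ribosomal RNAs mt-Rnr1 and mt-Rnr2 fell by 1.83 and 0.72.

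Set side by side, repletion replicate 3 had the highest mitochondrial mRNA share, 2.78%, and the lowest Ifih1 of its group, 145 CPM, and also the lowest Adar and Dhx58. Over all 13 mRNAs replicate 2 had the lowest share, 2.21%, with Ifih1 at 155 CPM between the others. Without mt-Co1 the order was different, with shares of 1.07%, 1.16% and 1.47% in repletion replicates 1, 2 and 3, beside Ifih1 at 167, 155 and 145 CPM, Adar at 73.1, 68.0 and 64.4 and Dhx58 at 15.1, 14.4 and 11.3. The mRNAs with no near-identical copy gave 0.469%, 0.497% and 0.643%, in the same order. In control replicates 1, 2 and 3 the shares without mt-Co1 were 0.409%, 0.331% and 0.329%. Beside them Ifih1 stood at 116, 96.2 and 117 CPM and Dhx58 at 22.3, 16.9 and 24.4, neither of them rising steadily as the share fell. Adar, at 87.8, 95.5 and 96.4 CPM, did so. Ifih1, Adar and Dhx58 were set beside these shares after their values were seen. Ddx58 also fell over repletion replicates 1, 2 and 3, at 148, 115 and 112 CPM, but the other tested sensing genes did not. Eif2ak2 stood at 104, 103 and 110 CPM, Tbk1 at 80.6, 80.0 and 87.3 and Irf3 at 24.0, 24.2 and 22.8. Mavs stood at 34.0, 28.0 and 33.5 CPM and Zbp1 at 1.92, 0.817 and 1.79. Within 3 libraries no relation can be tested, and across all 6 the libraries fall into the 2 groups, so no correlation is given. The strand that a read came from is not given in these counts, so they do not show whether double-stranded mitochondrial RNA was present.

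**Figure D3:**
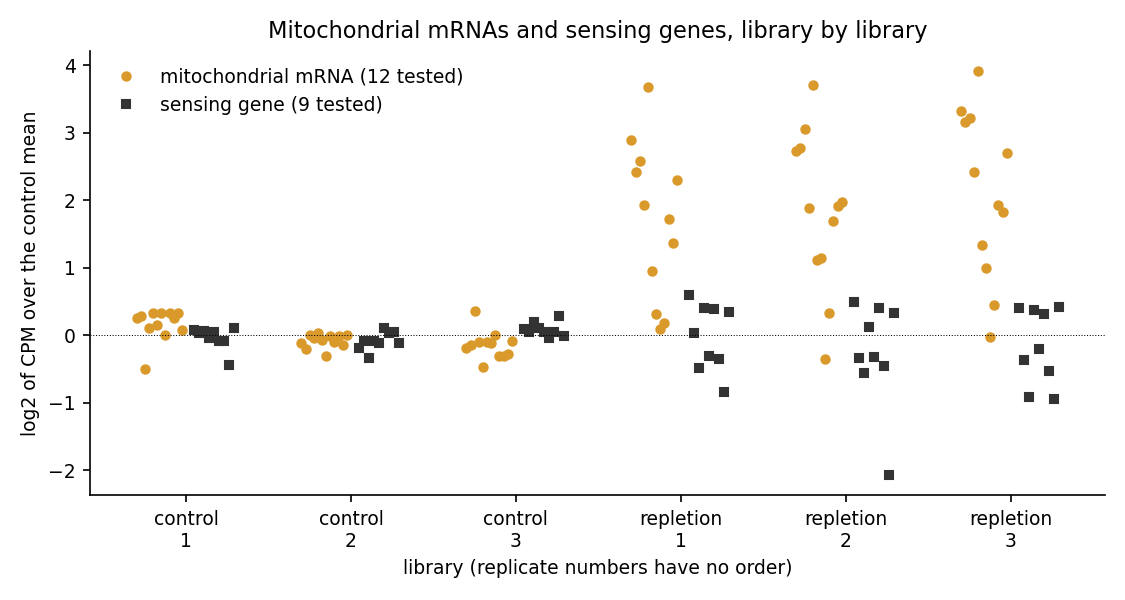
Log2 of CPM over the control mean (y) in each library (x), for the 12 tested mitochondrial mRNAs (orange circles) and the 9 tested sensing genes (black squares). Most mitochondrial mRNAs lie between 1 and 4 in the repletion libraries, whereas the sensing genes lie on both sides of 0.

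A further list held genes of mitochondrial RNA synthesis, processing and decay, of mitochondrial DNA upkeep and of nucleic acid release. Of its 30 tested genes 3 rose (10%) and 10 fell (33.3%). Over all tested features 20.5% rose and 19.2% fell. The median log2 fold change of the 30 was -0.23. Pnpt1, the exoribonuclease gene that limits mitochondrial double-stranded RNA, had mean levels of 103 CPM in control and 101 after repletion and did not pass (adjusted p 0.800, edgeR), and its helicase partner Supv3l1 did not pass either (-0.30, adjusted p 0.106). Vdac3, a channel gene of the outer membrane, fell by 0.59, Hsd17b10, a subunit of mitochondrial RNase P, fell by 0.79 and the oligoribonuclease gene Rexo2 fell by 0.48. Fastk, Tfb2m and Twnk rose by 0.37, 0.38 and 0.41. Polrmt, the mitochondrial RNA polymerase gene, had a log2 fold change of -0.36 and passed (adjusted p 0.0263, edgeR), while the transcription factor genes Tfam and Tefm did not pass. Bax and Bak1, whose products open the outer membrane, had log2 fold changes of 0.01 and 0.20 and did not pass. The 10 that fell became 6 without control replicate 3 and 5 without repletion replicate 3, and the 3 that rose became 0 without control replicate 2 and 1 without repletion replicate 3.

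Other RNA sensors and responders to double-stranded RNA moved both ways, 6 of 23 tested rising and 6 falling, with a median of -0.08. That was 26.1% each way, beside 20.5% and 19.2% of all tested features. The risers included the helicase genes Dhx15, Ddx3x and Dhx9, up 0.82, 0.75 and 0.74. Dhx15 went from 8160, 7674 and 8046 counts to 13357, 14830 and 14855, a gap well beyond the spread of either group. The fallers were led by genes of oligoadenylate synthetases and their relatives, which respond to double-stranded RNA: Oasl2 fell by 0.72, Oas1a fell by 0.55 and Oas1b fell by 0.95. These Oas genes lie in a family of similar sequences, so their counts are uncertain. Tlr3, the endosomal receptor for double-stranded RNA, had a log2 fold change of 0.16 and an adjusted p of 0.408 (edgeR). The count of fallers was 3 without control replicate 3 and also without repletion replicate 3.

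Among cofactors of the RIG-I-like receptors and proteins around MAVS, 6 of 36 tested rose and 6 fell. That was 16.7% each way, below the 20.5% and 19.2% of all tested features. The median was -0.01, which was 0.05 with library size only. Fadd, an adaptor shared with death receptors, rose by 1.26, Tomm70a, the outer membrane receptor that links MAVS to TBK1 and IRF3, rose by 0.45, and Tbkbp1, an adaptor of TBK1, rose by 0.58. Irf1 fell by 1.11, Pcbp2, whose product marks MAVS for degradation, fell by 0.74, and Irf7 fell by 1.03. Trim25, the ligase gene of RIG-I activation, had a log2 fold change of -0.17 and did not pass (adjusted p 0.225, edgeR).

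In the DNA branch, cGAS makes a cyclic dinucleotide that activates STING. Mb21d1, the cGAS gene, averaged 33.6 CPM in control and 39.5 after repletion and did not pass (adjusted p 0.155, edgeR). Tmem173, the STING gene, went from 228, 214 and 244 counts to 511, 321 and 480. All 3 repletion libraries were above control, and the log2 fold change was 0.90 ± 0.17 with an adjusted p of 4.34e-04 (edgeR). Trim56, a ligase gene that acts on STING, rose by 0.89 and Rad50 by 0.45. Aim2, the DNA sensor of an inflammasome, had a log2 fold change of 0.14 and an adjusted p of 0.490.

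Of the DNA-sensing list of 30 tested genes, 4 rose (13.3%) and 10 fell (33.3%), beside 20.5% and 19.2% of all tested features. The median was -0.11. The 4 risers became 2 without control replicate 3. The 3 fallers with the smallest p were Dnase1l1, Trim32 and Dnase2a. Dnase2a, a nuclease gene of the lysosome, went from 424, 442 and 432 counts to 251, 219 and 215, and Dnase1l1 fell by 1.17. The ligase gene Trim32 fell by 0.87. All 3 subunit genes of RNase H2, Rnaseh2a, Rnaseh2b and Rnaseh2c, fell, by 0.58, 0.55 and 0.71, and were chosen for mention after their values were seen. Other nuclease genes of the list did not pass, with log2 fold changes of -0.01 for Mre11a, -0.23 for Samhd1 and 0.13 for Dnase1l3.

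The list around PKR and ZBP1 held their effectors, but also the other eIF2α kinase genes Eif2ak1, Eif2ak3 and Eif2ak4, and Dnajc3 and Nck1. Of its 16 tested genes 2 rose (12.5%) and 3 fell (18.8%), both below the 20.5% and 19.2% of all tested features. The median was -0.09. Ddit3, the gene of the stress transcription factor CHOP, went from 792, 780 and 1076 counts to 255, 173 and 200. Ppp1r15a, a stress-induced subunit of the eIF2α phosphatase, fell by 0.55, and Mlkl, the executor of necroptosis, fell by 0.28 with an adjusted p of 0.0476 (edgeR). The constitutive counterpart Ppp1r15b rose by 0.51. Eif2s1, which encodes eIF2α, and Ripk3, the kinase that ZBP1 engages, did not pass, with log2 fold changes of -0.13 and -0.08.

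Interferon genes were near 0. Ifnb1 had 0, 0 and 4 counts in control and 2, 8 and 0 in the repletion group, and Ifna1, Ifna2 and Ifna4 had none, which allows up to 0.191 CPM in a library. Of 10 tested genes of the interferon receptor and STAT arm, 0 rose and 4 fell (40%, edgeR). By DESeq2, by limma-voom and at an unadjusted p under 0.05, 0 also rose. Stat2 fell by 0.79, Usp18, a brake on the receptor, fell by 1.49, and Isg15, a ubiquitin-like modifier gene, fell by 1.47. Usp18 and Isg15 are counted again among the interferon-stimulated genes, as are Irf7 of the MAVS list and Ifit1 of the RNA sensor list. Fadd, Ripk1 and Casp8 are counted both in the MAVS list and in the list around PKR and ZBP1. The counts of these lists are therefore not independent. Of 30 tested interferon-stimulated genes 2 rose (6.67%) and 17 fell (56.7%), beside 20.5% and 19.2% of all tested features. The median was -0.48. Ifit3 went from 2842, 2406 and 3838 counts to 1768, 970 and 976. The 2 risers were Cmpk2, a mitochondrial nucleotide kinase gene, up 0.88, and Cxcl10, a chemokine gene, up 0.35 with overlapping groups. Only 1 rose when any single control replicate, or repletion replicate 1 or 2, was left out. Ifih1 and Eif2ak2, which interferon can induce, were higher in libraries where 17 of 30 tested interferon-stimulated genes were lower.

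Of 362 tested genes with the response element core in a promoter window, 20.4% rose and 25.7% fell, beside 20.5% and 19.2% of all tested features. Their median was -0.06. This set was chosen after the values were seen.

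**Figure D4:**
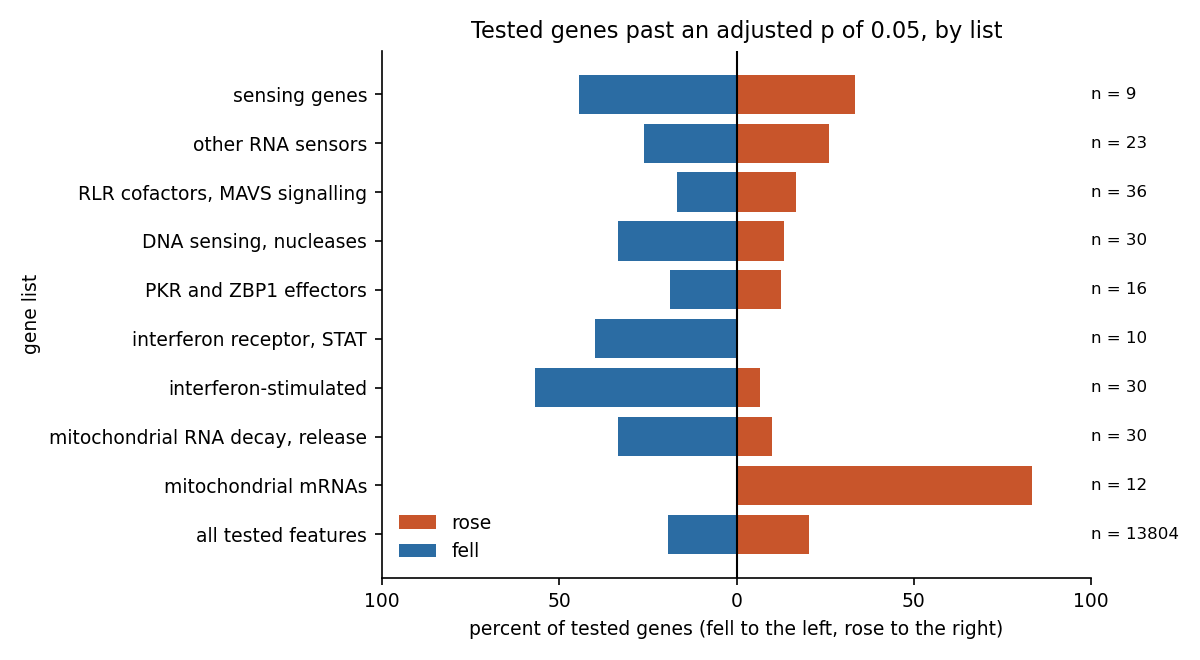
Percent of tested genes in each list (y) that rose (right) or fell (left) at an adjusted p under 0.05 (x), with the number tested at the right. The sensing genes show 33.3% rising and 44.4% falling, the interferon-stimulated genes 6.67% and 56.7%, and the mitochondrial mRNAs 83.3% and 0%.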

How the data were processed

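The labels group 6 samples by title. Raw read counts per feature were deposited, with no normalization. Per the submitters' processing notes the build was GRCm38.p6 and the tools DESeq2 1.20.0, featureCounts 1.5.0-p3 and HISAT2 2.0.5. The annotation release and the strand setting of the counting are not known from the labels or the table. The deposited FPKM equal count over length times 1 constant per sample, and served to compare levels between genes. The authors' deposited log2 fold changes, p-values and adjusted p-values were read for Irf3. Group means (scaled signal) deposited by the authors were not used.

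Features were filtered with filterByExpr (13804 kept, 41428 removed), scaled by TMM (factors 0.970 to 1.03) and tested two-sided with edgeR 4.0.16 (glmQLFit, glmQLFTest) in R 4.3.3, with p-values adjusted by Benjamini-Hochberg (threshold 0.05). SE came from the F statistic. CPM are TMM-scaled, except marker sums, which use the library total. Features without an Ensembl identifier held 0.133% to 0.208% of counts. Replicates differed beyond sampling noise (chi-square per feature 8.56 to 23.3). Overlaps came from GENCODE M21 and near-identical copies from BLAST 2.17.0 (95% identity over 100 bases). Promoters are RefSeq's, on GRCm38.p6.

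All 10 genes and the 13 mitochondrial mRNAs were named, with up to 3 genes per list and direction by smallest p, pathway-defining genes at low counts, and the 5 genes nearest to the member with the smallest p in each direction, by log2(CPM + 0.5) centred on the control mean. Other names were chosen after their values were seen. Members and lists were chosen with earlier results of these data known. Alternatives were DESeq2 1.42.0, limma-voom (limma 3.58.1), other scaling, filters and feature sets, a replicate block, each replicate left out, removal of each library's trend with length and GC content and, added after seeing the data, that removal with the block. Tested on counts simulated for these groups over 13500 genes, the fit found 42.9% of 63 genes given a 1.5-fold change, 72.7% of 66 given 2-fold and 91.8% of 61 given 4-fold. It also called 10 genes that were not changed. No other gene was changed in the simulation, whereas 39.7% of tested features passed in the data. The adjusted threshold was therefore stricter there, and these shares need not hold for the real fit.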

Additional observations from a re-analysis of the deposited data

How the results depend on the processing

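Over 19 alternatives the features that rose numbered 2195 to 3214 and those that fell 1977 to 2886, all within 1.5 times the reported counts. No sensing gene changed direction. Leaving out 1 library moved the sensing genes that rose between 1 and 3 and those that fell between 1 and 4. The mitochondrial mRNAs that rose numbered 10 or 11. For mt-Co1, which did not pass in any setting, the log2 fold change ran from -0.18 to 0.03 with 1 library left out, turning sign without repletion replicate 2, and was positive with the length and GC trend removed (0.12) and with that removal and the replicate block (0.11). The median of the MAVS signalling list turned to 0.01 with limma-voom, 0.05 with library size only and 0.02 with the replicate block. The difference in mitochondrial mRNA share was 0.864 percentage points, 0.726 to 1.01 with 1 library left out, and 0.395 over the mRNAs with no near-identical copy, which sums fewer genes. Samples with the same number did not deviate together (correlations -0.11, -0.07 and 0.06 over genes). Deviations from a mean of only 3 samples cannot tell whether the numbers pair them, and the labels do not say. With the replicate block 2485 features rose and 2353 fell, of the sensing genes 2 rose and 3 fell, Tbk1 (0.0933) and Irf3 (0.0855) no longer passing, and 6 of the mitochondrial RNA list fell. The causes were not tested. Fold changes below 1.5 are at the limit of 3 against 3 samples, and Zbp1 rests on 13 to 73 counts.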
